A study of Homo sapiens with 45 samples.

Results

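The LIM homeobox genes LHX1, LHX2, LHX3, LHX4, LHX5, LHX6, LHX8, LHX9, ISL1 and ISL2 were followed through a map of poised-enhancer contacts in human pluripotent cells. A contact was taken as theirs when both of its ends lay on one chromosome (a cis pair) and either end reached within 1000 bp of an annotated end of a member gene in RefSeq on GRCh38. By this rule 195 of the 152688 cis pairs, out of 434524 listed pairs in all, belonged to the 10 genes, and no pair touched more than 1 of them. The pairs were spread unevenly: ISL1 had 76, LHX2 65, LHX9 20, ISL2 16, LHX5 9, LHX4 6, LHX8 2 and LHX6 1, while LHX1 and LHX3 had 0.

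The cells were of the established human embryonic stem cell line HNES1 and were taken on day 5 of their transition out of naive into primed pluripotency. They were grown with UNC6852 at 2.5 µM, a PROTAC that leads to degradation of the PRC2 subunit EED, with UNC1999 at 1 µM, which blocks the catalytic activity of EZH1 and EZH2, or with the solvent DMSO, in each case from 24 h before day 0 with daily renewal. In the assay, poised-enhancer capture Hi-C, DpnII fragments that hold a poised enhancer are pulled out with RNA probes together with the DNA ligated to them. Each condition had 15 libraries, from 3 biological replicates of which each gave 4 libraries in the first sequencing batch and 1 in the second, and all 15 were pooled into 1 profile. A condition therefore has 1 value per pair, with no replicate spread, and the differences below have no test and no p-value. The doses of the compounds differ, so their values stand side by side and are not compared as to strength. Every value is a CHiCAGO score, which measures how far the reads of a pair exceed a distance-dependent background, and a score of 5 or more counts as a call. Read depth behind the scores is unknown, and the assay holds no measurement of EED, of histone marks, of expression or of cell type markers.

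LIM homeodomain proteins are transcription factors that bind DNA through a homeodomain and recruit partners, chiefly the cofactor LDB1, through LIM domains. They set cell identity in the embryo, above all in the nervous system, and in pluripotent cells their genes are silent targets of Polycomb repression. ISL1 and ISL2 act in motor neurons, ISL1 also in heart progenitors and pancreatic islets. LHX3 and LHX4 act in the pituitary and in motor neurons, LHX2 in the forebrain and eye, LHX9 in the gonad, LHX6 and LHX8 in the ventral forebrain, and LHX1 and LHX5 in the early head and forebrain, LHX1 also in the kidney.

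Where the captured fragments lay relative to each gene decided which contacts could be seen. Captured fragments are known here from the listed pairs, so one without any listed pair is not counted. Within 1000 bp of a gene end lay 19 captured fragments, 6 at ISL1, 4 at ISL2, 3 each at LHX2 and LHX9, and 1 each at LHX4, LHX5 and LHX8. Of these, 18 listed cis pairs. The exception was the LHX2 promoter fragment, chr9:124009484-124012585, with 0 cis pairs and 3 pairs to other chromosomes. Within 5000 bp or inside the gene bodies the number of captured fragments was 91, of which 18 belonged to ISL1, 14 to LHX5, 13 to LHX9, 10 to LHX6, 8 each to LHX1, LHX2 and LHX4, 6 to LHX8, 5 to ISL2 and 1 to LHX3. The rule thus sees a part of the captured DNA of these loci. In 181 of the 195 pairs the gene was at the captured end, and in 14 it was at the other end of a captured fragment elsewhere. Captured fragments had a median length of 625 bp, against 5266 bp for the uncaptured other ends, so partner positions are resolved to about that length.

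The 4 promoters that lie whole inside a captured fragment at a gene end are printed. That fragment listed cis pairs for ISL1, LHX4 and LHX8 but 0 for LHX2, whose pairs were read at its last exon. The printed stretches are the 250 bases before an annotated start on the plus strand, from RefSeq on GRCh38.p14: chr5:51383198-51383447 for ISL1, chr9:124011518-124011767 for LHX2, chr1:180230014-180230263 for LHX4 (a start inside the annotated gene) and chr1:75128184-75128433 for LHX8. Capitals mark CpG dinucleotides.
ISL1: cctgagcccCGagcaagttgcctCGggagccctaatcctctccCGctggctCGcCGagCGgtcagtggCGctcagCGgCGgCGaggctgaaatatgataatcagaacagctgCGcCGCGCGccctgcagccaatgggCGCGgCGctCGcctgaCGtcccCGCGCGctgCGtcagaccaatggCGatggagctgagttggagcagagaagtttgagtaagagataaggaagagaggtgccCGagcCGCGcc
LHX2: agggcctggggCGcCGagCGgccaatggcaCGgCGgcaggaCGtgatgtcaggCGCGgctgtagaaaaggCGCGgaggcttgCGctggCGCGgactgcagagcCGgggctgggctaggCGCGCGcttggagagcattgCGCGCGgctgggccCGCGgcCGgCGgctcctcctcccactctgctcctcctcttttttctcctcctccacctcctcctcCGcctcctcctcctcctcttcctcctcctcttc
LHX4: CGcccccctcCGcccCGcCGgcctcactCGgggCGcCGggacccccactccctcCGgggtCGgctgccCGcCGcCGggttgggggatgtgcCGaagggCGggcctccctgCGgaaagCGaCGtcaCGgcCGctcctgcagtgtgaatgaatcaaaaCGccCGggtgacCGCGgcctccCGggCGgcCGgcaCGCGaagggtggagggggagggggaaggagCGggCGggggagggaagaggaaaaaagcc
LHX8: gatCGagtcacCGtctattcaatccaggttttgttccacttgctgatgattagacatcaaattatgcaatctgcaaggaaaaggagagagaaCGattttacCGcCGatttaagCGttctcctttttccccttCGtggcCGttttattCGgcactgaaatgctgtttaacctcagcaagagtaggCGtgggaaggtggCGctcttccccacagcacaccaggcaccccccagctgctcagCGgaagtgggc
These stretches hold 27, 25, 30 and 12 CpG dinucleotides for ISL1, LHX2, LHX4 and LHX8. Over the full promoter windows of 300 bases, which reach 50 bases past the start, the counts were 36, 30, 32 and 13, against a median of 14 and quartiles of 4 and 28 over 35116 RefSeq promoters of that length. The ISL1, LHX2 and LHX4 promoters were thus CpG-rich and that of LHX8 was near the median. The DpnII site GATC, a palindrome that reads alike on both strands, was absent from the windows of ISL1, LHX2 and LHX4, while the LHX8 window begins with one, at the first base of its captured fragment chr1:75128184-75129817. GATC occurs in 41.7% of the 35116 promoters. TAATTA, a palindromic core bound by many homeodomains, was absent from all 4 windows and occurs in 4.84% of promoters.

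Across the 10 genes 104 pairs were called in UNC6852, 79 in UNC1999 and 87 in DMSO. That is 53.3% of the 195 pairs in UNC6852, 40.5% in UNC1999 and 44.6% in DMSO, beside 46.1%, 42.3% and 42.4% of all cis pairs. ISL1 gave 45 calls in UNC6852, 35 in UNC1999 and 39 in DMSO, and LHX2 gave 37, 26 and 30 in the same order of profiles. The 141 pairs of ISL1 and LHX2 made up 72.3% of the set, so totals over the 10 genes are mainly a statement about these 2. Within 1000 bp all 18 pairs called in every profile were theirs, 14 of ISL1 and 4 of LHX2. They were 9.23% of the 195 pairs (exact 95% binomial interval 5.56 to 14.2), beside 8.33% of all cis pairs. None of the 54 pairs of the other 6 genes was called in all 3 profiles, 4 were called in more than 1 and 50 in 1 only. Of all 152688 cis pairs, 118395 were called in 1 profile only, so single calls are the rule. With 5000 bp other members had constant calls too. Of 580 pairs, 44 were then called in every profile: 27 of ISL1, 5 of LHX8, 4 each of LHX1 and LHX2, 3 of LHX9 and 1 of LHX5.

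**Figure D1:**
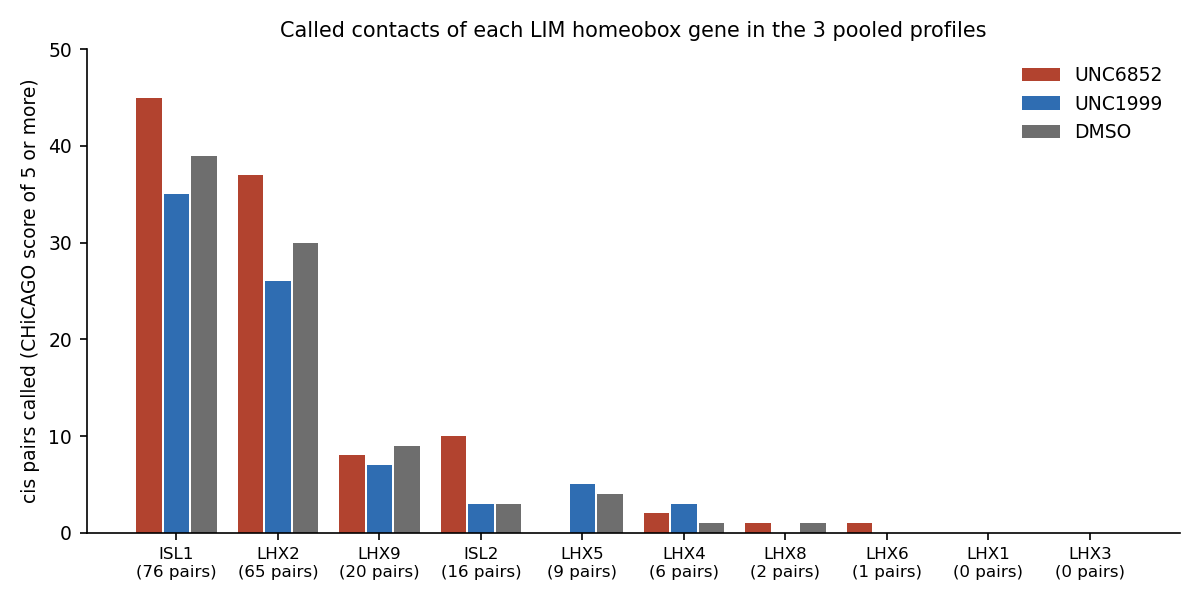
Number of cis pairs called per gene (CHiCAGO score of 5 or more) in UNC6852 (red), UNC1999 (blue) and DMSO (grey), each 1 pooled profile. ISL1 and LHX2 hold most calls in every profile, ISL2 has 10 calls in UNC6852 against 3 in UNC1999 and 3 in DMSO, and LHX5 has 0, 5 and 4.

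Most calls of one profile were not called in another. UNC6852 shared 35 of the 87 DMSO calls, which is 40.2% (29.9 to 51.3), beside 31.4% of all DMSO cis calls. In UNC1999 28 of the 87 were called again, 32.2% (22.6 to 43.1), beside 29.3%. Read the other way, 33.7% of the genes' UNC6852 calls and 35.4% of their UNC1999 calls were DMSO calls too, beside 28.8% and 29.3% of all cis calls. Between the treated profiles, 30 calls were shared, a share of 28.8% for UNC6852 and 38.0% for UNC1999. The intervals are exact (Clopper-Pearson), cover counting error only and take pairs as independent, which neighbouring pairs of one locus are not. ISL1 had the highest kept shares: 22 of its 39 DMSO calls in UNC6852, 56.4% (39.6 to 72.2), and 17 in UNC1999, 43.6% (27.8 to 60.4). For LHX2 they were 12 and 10 of 30, for LHX9 1 and 1 of 9, and 0 for the 3 ISL2, 4 LHX5, 1 LHX4 and 1 LHX8 calls.

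ISL1, on chromosome 5 (51383448-51394730, plus strand), stands alone between large stretches without protein-coding genes, and the partner overlapped no protein-coding gene body in 75 of its 76 pairs. Its contacts went to a block on each side. The block on the lower side, chr5:50933244-51055233, held 44 pairs over 17 partner regions, was reached by all 6 captured ISL1 fragments and lay 86.7 kb from PARP8, an ADP-ribosyltransferase gene and the nearest one. It had 30 calls in UNC6852, 17 in UNC1999 and 28 in DMSO, and 10 pairs were called in all 3. Its mean asinh score, a log-like transform that accepts 0, was 2.32 in UNC6852, 2.06 in UNC1999 and 2.29 in DMSO. The block on the higher side, chr5:51946336-52037975, lay 552 kb from ISL1, its nearest gene, and held 21 pairs over 9 regions with 11, 14 and 8 calls in UNC6852, UNC1999 and DMSO. Its mean asinh scores were 2.02, 2.29 and 1.96. In UNC1999 the lower block was thus below DMSO by 0.23 and the higher block above it by 0.33, while UNC6852 differed from DMSO by 0.03 and 0.06.

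**Figure D2:**
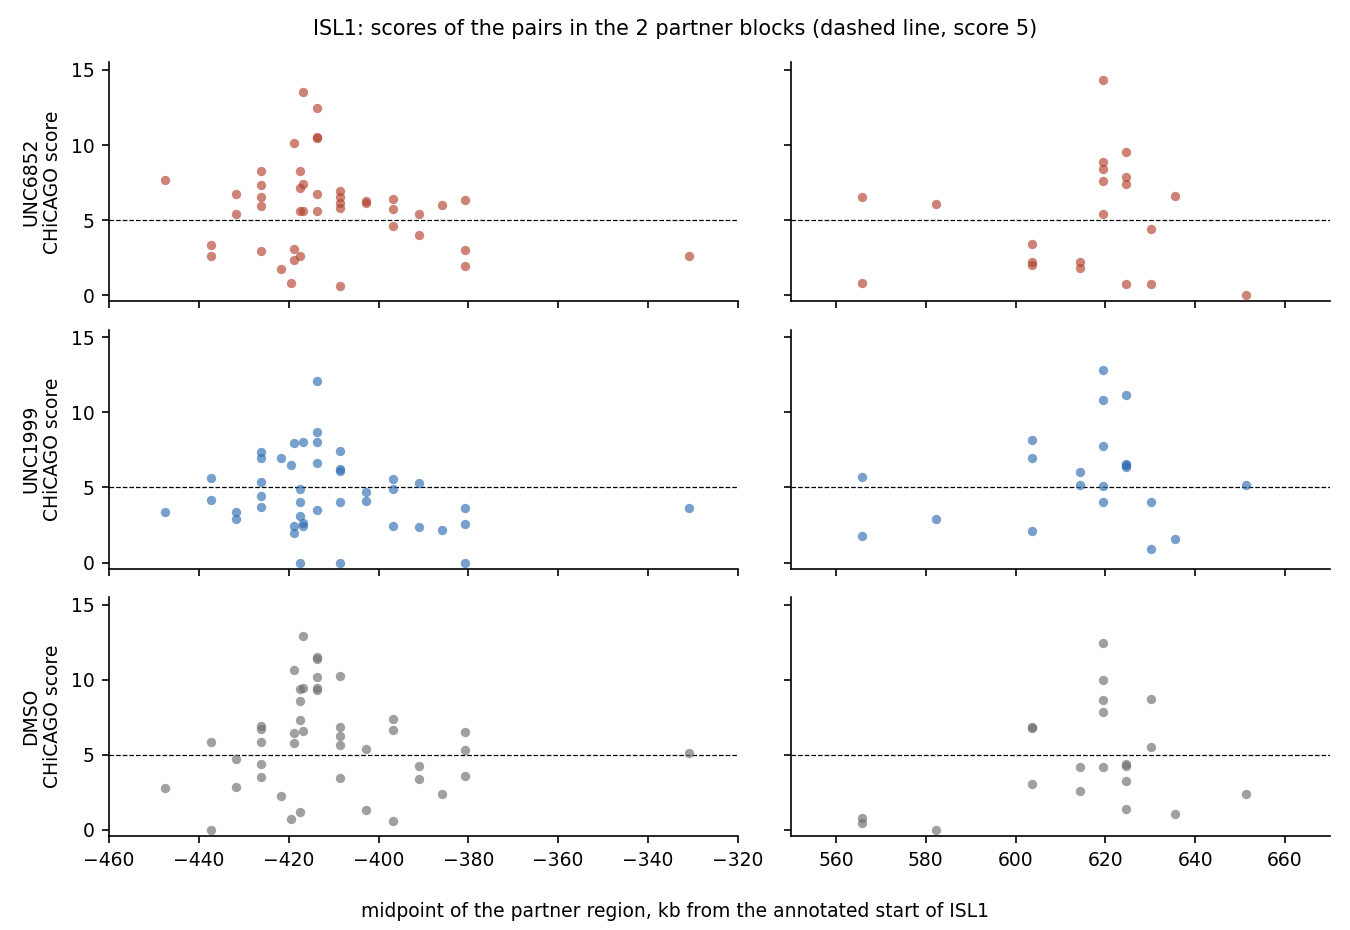
CHiCAGO score of each ISL1 pair against the midpoint of its partner region in kb from the annotated start of ISL1, in UNC6852 (top), UNC1999 (middle) and DMSO (bottom), for the partner blocks on the lower side (left) and the higher side (right); the dashed line is a score of 5. In all profiles the highest scores pile up near -414 kb and 620 kb.

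The peak of the lower block was the region chr5:50967151-50972202, listed from 5 of the 6 ISL1 fragments. Its scores were 5.61, 10.5, 10.5, 12.5 and 6.75 in UNC6852, 3.48, 8.70, 6.61, 8.00 and 12.1 in UNC1999, and 10.2, 11.5, 9.31, 11.4 and 9.45 in DMSO, in the order of the fragments along the chromosome. All 5 fragments called it in UNC6852 and DMSO and 4 in UNC1999. The peak of the higher block was chr5:52000381-52005511, also listed from 5 fragments. There the scores were 8.42, 14.3, 8.86, 7.60 and 5.42 in UNC6852, 4.04, 10.8, 12.8, 5.10 and 7.79 in UNC1999, and 4.18, 8.61, 7.84, 12.4 and 9.99 in DMSO. Both peaks were present in every profile and their ranges overlapped between profiles.

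Next to the second peak, profiles differed from one partner region to the next. The region chr5:52005512-52010779 was listed from 4 ISL1 fragments and scored 9.56, 0.76, 7.39 and 7.86 in UNC6852, 6.35, 11.2, 6.49 and 6.56 in UNC1999, and 4.24, 3.23, 1.42 and 4.40 in DMSO. All 4 fragments called it in UNC1999 and 3 in UNC6852, while none did in DMSO, where it was below 5 throughout. The following region, chr5:52010780-52016348, went the other way, with 4.38 and 0.77 in UNC6852, 0.92 and 4.05 in UNC1999, and 8.73 and 5.55 in DMSO. In UNC1999 every reading of the first region was above DMSO and both readings of the next were below it.

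The lower block could also be read from its own end, since 4 captured fragments at chr5:50963605-50967150 listed ISL1 as their partner in 10 pairs. These are among the 44 pairs of the block given above, so they are a part of its counts and not a separate reading. The 10 pairs gave 7 calls in UNC6852, 3 in UNC1999 and 8 in DMSO. Their scores were below DMSO in 7 of 10 pairs in UNC6852 and 8 of 10 in UNC1999. Of all 152688 cis pairs, 69049 were below DMSO in UNC6852 and 72364 in UNC1999. As 8 of the 10 pairs were DMSO calls, most had a high DMSO score when listed, which by itself favours lower scores in the other profiles. The strongest, between chr5:50966247-50967150 and the region just before the ISL1 promoter, scored 13.5 in UNC6852, 8.00 in UNC1999 and 12.9 in DMSO. One captured pair, chr5:50964231-50965135 with chr5:51394891-51396153, was listed from both sides, with 3.08 and 2.34 in UNC6852, 2.46 and 1.95 in UNC1999, and 6.45 and 5.81 in DMSO. Both readings put it above 5 in DMSO only.

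Within ISL1 the fragments at the start and at the end of the gene gave different orders of the profiles. The 3 fragments at the first-exon side had 26 pairs with mean asinh scores of 2.12 in UNC6852, 1.83 in UNC1999 and 2.02 in DMSO. The 3 at the last-exon side had 40 pairs with 2.01, 2.28 and 1.95. In these means UNC1999 was thus the lowest profile at the start of the gene and the highest at its end. It was the highest at each end fragment, by 0.21, 0.56 and 0.07 over DMSO in order along the chromosome. At the start fragments it differed from DMSO by -0.11, -0.65 and -0.07. At the first of these, UNC1999 stood above UNC6852, with 2.23 against 2.04. Fragments 1000 to 5000 bp from the gene ends saw the same blocks: of their 113 pairs, 65 fell in the lower block with 34 calls in UNC6852, 28 in UNC1999 and 29 in DMSO, and 34 in the higher block with 15, 17 and 16. Their mean asinh scores were 1.94 in UNC6852, 1.77 in UNC1999 and 1.93 in DMSO in the lower block and 1.77, 1.77 and 1.86 in the higher one. The higher UNC1999 level of the higher block was thus not seen from these fragments, where UNC1999 was below DMSO in both blocks. The ISL1 pairs furthest from DMSO in UNC6852 were single readings. With a captured fragment 498 kb away the score was 6.74 in UNC6852, 2.87 in UNC1999 and 0 in DMSO, and with the end of MIER3, a chromatin cofactor gene 5539 kb away, it was 0, 0 and 5.68.

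LHX2, on chromosome 9 (124011768-124033301, plus strand), was seen from its last exon, through the captured fragments chr9:124032321-124032818 and chr9:124032900-124033368. The promoter fragment, whose sequence is given above, listed no cis partner although it is 3102 bp long, against 498 and 469 bp. Of the 65 pairs, 60 ended in a block of 341 kb, chr9:123334499-123675118, and 59 of the partners lay inside the body of DENND1A, which encodes an exchange factor for the small GTPase RAB35. In this block 35 pairs were called in UNC6852, 24 in UNC1999 and 29 in DMSO, with mean asinh scores of 2.25, 2.03 and 2.04. The contacts did not pile up on 1 region as at ISL1 but covered the block, with 39 different partner regions.

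**Figure D3:**
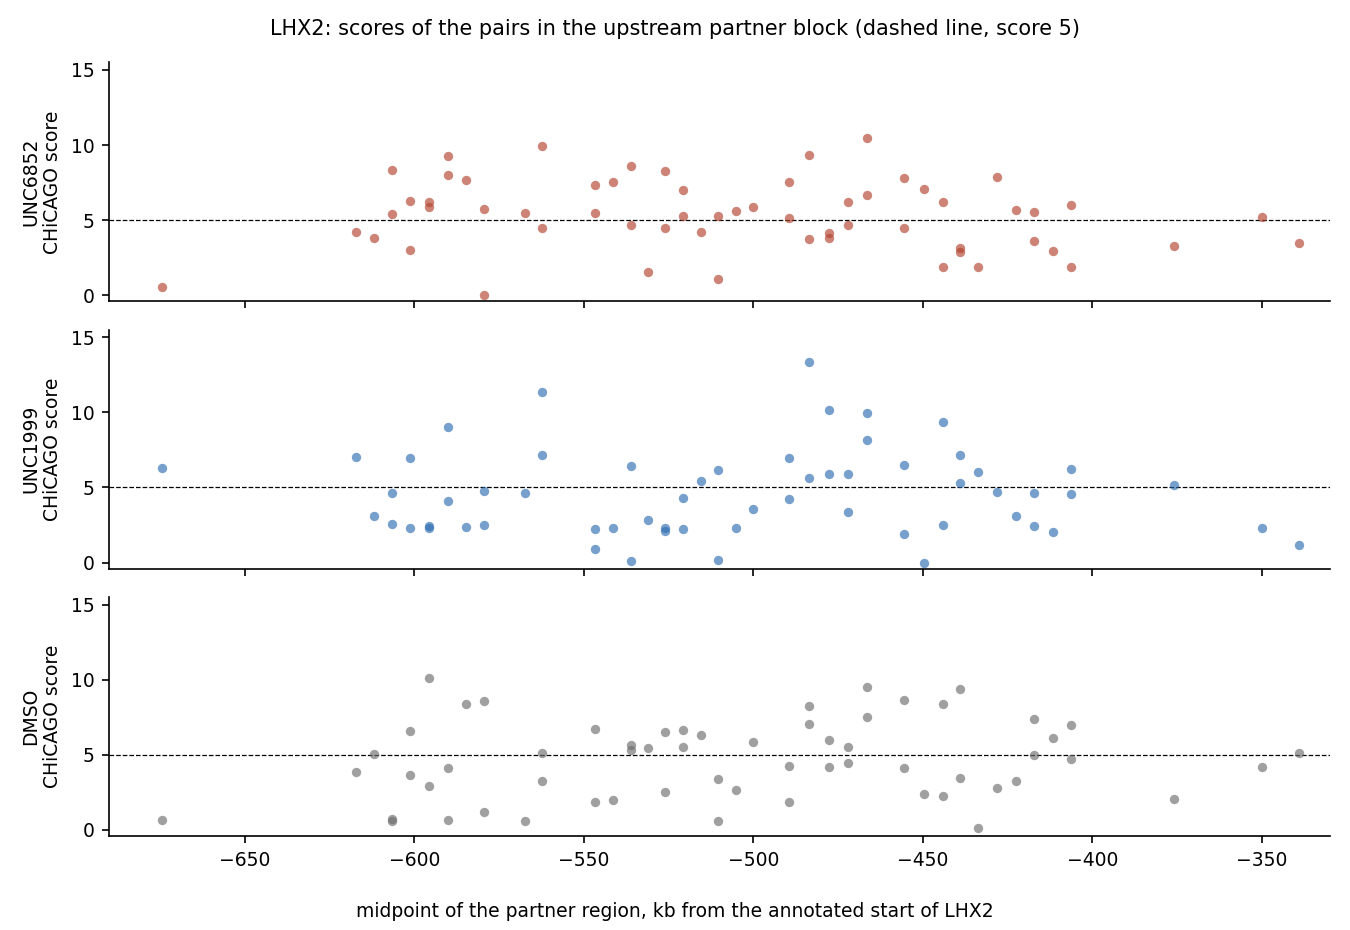
CHiCAGO score of each LHX2 pair of the lower-side block against the midpoint of its partner region in kb from the annotated start of LHX2, in UNC6852 (top), UNC1999 (middle) and DMSO (bottom); the dashed line is a score of 5. Between -600 and -500 kb, calls number 18 in UNC6852, 6 in UNC1999 and 13 in DMSO, and between -500 and -400 kb 13, 14 and 13.

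Along the block the profiles parted between -600 and -500 kb from the gene start. There 18 of 25 pairs were called in UNC6852, 6 in UNC1999 and 13 in DMSO, with mean asinh scores of 2.32, 1.82 and 2.00. Between -500 and -400 kb the 25 pairs gave 13, 14 and 13 calls and means of 2.26, 2.26 and 2.24, so in the nearer stretch calls and levels were close in the 3 profiles. These bins were chosen after the values were seen. The most stable region was chr9:123542455-123548224, called from both LHX2 fragments in every profile, with 6.69 and 10.5 in UNC6852, 9.98 and 8.17 in UNC1999, and 7.54 and 9.51 in DMSO. The region chr9:123525161-123531272 had the highest LHX2 score, with 9.34 in UNC6852, 13.4 in UNC1999 and 8.25 in DMSO from one fragment. From the other it had 3.72, 5.60 and 7.03, with DMSO the highest.

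Some regions stood apart from DMSO in both fragments. At chr9:123402544-123407570 the scores were 8.32 and 5.38 in UNC6852, 2.57 and 4.63 in UNC1999, and 0.62 and 0.72 in DMSO. At chr9:123419294-123424345 they were 7.98 and 9.27 in UNC6852, 9.02 and 4.12 in UNC1999, and 4.10 and 0.63 in DMSO. Both regions were called from both fragments in UNC6852 and from neither in DMSO. The pair furthest below DMSO in UNC6852 was with chr9:123429849-123435004, with 0 in UNC6852, 2.51 in UNC1999 and 8.60 in DMSO, but the other LHX2 fragment read that region in the opposite order, with 5.72, 4.80 and 1.20. On the higher side LHX2 met NEK6, a mitotic kinase gene, in 4 pairs with 2, 1 and 1 calls in UNC6852, UNC1999 and DMSO. It met the end of NR5A1, the gene of a gonadal and adrenal nuclear receptor, in 1 pair with 0 in UNC6852, 5.21 in UNC1999 and 0.49 in DMSO.

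LHX9, on chromosome 1 (197912464-197935478, plus strand) and the closest relative of LHX2, was seen from 3 captured fragments at its first exon. Its partners resembled those of LHX2, since 18 of the 20 lay inside DENND1B, a gene of the same family as DENND1A. The block chr1:197462885-197691280 held 18 pairs with 8 calls in UNC6852, 7 in UNC1999 and 7 in DMSO and mean asinh scores of 1.58, 1.76 and 1.74. The strongest pair by mean score, with chr1:197611008-197616268, had 4.51 in UNC6852, 6.86 in UNC1999 and 9.26 in DMSO. The next region, chr1:197616269-197622311, had 9.52, 5.62 and 3.34 from the same fragment, the opposite order of profiles. From the adjoining fragment that region had 0.50 in UNC6852, 4.00 in UNC1999 and 7.61 in DMSO, so fragments side by side gave opposite differences. Captured fragments 1000 to 5000 bp from the gene ends placed 22 of their 30 pairs in the same block, with 11 calls in UNC6852, 10 in UNC1999 and 11 in DMSO.

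ISL2, on chromosome 15 (76336773-76342475, plus strand), had most of its calls in 1 profile. Of its 16 pairs, 10 were called in UNC6852, 3 in UNC1999 and 3 in DMSO. None was called in more than 1 profile, and 118395 of all 152688 cis pairs were likewise called in 1 only. Its mean asinh score was 1.92 in UNC6852, 0.86 in UNC1999 and 1.16 in DMSO. In UNC6852 12 of the 16 pairs were higher than in DMSO, beside 77556 of all 152688 cis pairs. Each ISL2 pair is listed because 1 profile reached 5, so the 10 UNC6852 calls had to lie above DMSO. The means and the 12 pairs thus largely restate the split of calls and are not further support for it. The last-exon fragments had 5, 2 and 0 calls over 7 pairs, and the first-exon fragments 5, 1 and 3 over 9. The region chr15:76191758-76197174, inside TMEM266, a gene of a membrane protein with a voltage sensor domain, was listed from 3 of the 4 ISL2 fragments. Its scores were 6.05, 6.71 and 2.63 in UNC6852, 0.76, 0.88 and 5.14 in UNC1999, and 2.24, 3.90 and 0.78 in DMSO. UNC6852 was above DMSO in all 3. On the other side, 4 pairs with SCAPER and RCN2 spanned chr15:76859795-76937277 and gave 3 calls in UNC6852, 1 in UNC1999 and 0 in DMSO, with mean asinh scores of 2.36, 0.87 and 0.91. The pair furthest below DMSO in both treated profiles was with chr15:76152047-76157314, also in TMEM266, with 0.36 in UNC6852, 0 in UNC1999 and 7.47 in DMSO. All ISL2 calls lay between 5.07 and 7.47, close to the threshold.

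LHX5, on chromosome 12 (113462033-113471871), had 9 pairs, of which 0 were called in UNC6852, 5 in UNC1999 and 4 in DMSO. Of these, 8 came from the captured fragment chr12:113471855-113473017 at the higher-coordinate end of the gene, and 7 of the 9 scores were 0 in UNC6852. Its contacts were long, with 4 of them in chr12:114676289-114697737 at and beside TBX3, a T-box factor gene of limb and heart, a median of 1204 kb from LHX5 over all 9 pairs. In 5 of the 9 pairs the partner was itself a captured fragment. With the captured fragment inside TBX3, chr12:114676289-114676796, the score was 0 in UNC6852, 3.30 in UNC1999 and 6.49 in DMSO. With chr12:114692601-114693972 it was 0, 6.97 and 0, and with chr12:114697195-114697737 it was 0, 0 and 6.58. The TBX3 side was thus met in UNC1999 and in DMSO, through different fragments, and under 5 in UNC6852.

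The wider window of 5000 bp changed this picture. It gave LHX5 113 pairs with 45 calls in UNC6852, 44 in UNC1999 and 35 in DMSO, so fragments inside the gene did call pairs in UNC6852. Of these pairs, 26 lay at TBX3 (chr12:114666645-114700216), 17 of them between captured fragments, with 10, 8 and 9 calls. A nearer block of 74 pairs, chr12:113564063-113835392, gave 29, 32 and 23. The absence of UNC6852 calls therefore holds for 1 captured fragment and the pair that reached the gene end, not for the gene. The same is true of the long reach. Over the 113 pairs the median distance was 294 kb, and 81 of them spanned more than 100 kb and up to 1 Mb.

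**Figure D4:**
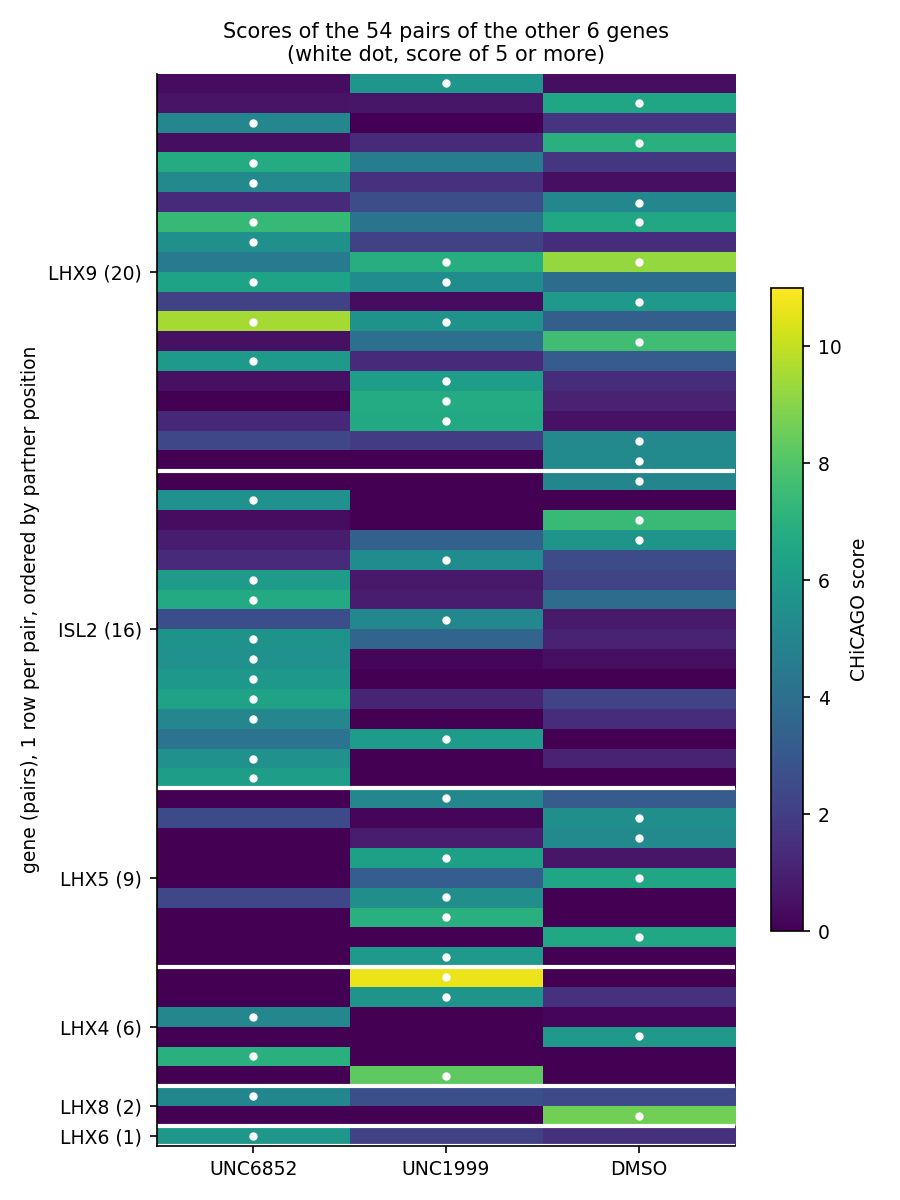
Scores of the 54 pairs of LHX9, ISL2, LHX5, LHX4, LHX8 and LHX6 in UNC6852 (left), UNC1999 (middle) and DMSO (right), 1 row per pair in order of partner position within each gene; white dots mark scores of 5 or more. Rows with dots in more than 1 column are seen at LHX9 alone, dots of ISL2 fall mainly in UNC6852, and LHX5 has none there.

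LHX4, on chromosome 1 (180228375-180278984, plus strand), had 6 pairs from its promoter fragment chr1:180226774-180230317, each called in 1 profile: 2 in UNC6852, 3 in UNC1999 and 1 in DMSO. Of the 6, 3 spanned more than 2 Mb. The highest LHX4 score, 10.7 in UNC1999 with 0 in UNC6852 and 0 in DMSO, joined LHX4 to PRKAA2, a subunit gene of AMP-activated kinase, over 123527 kb. The shortest, of 454 kb, was with FAM163A and had 0, 5.70 and 1.55. LHX8, on chromosome 1 (75128434-75199454, plus strand), had 1 pair from its promoter fragment, over 42377 kb to MAN1A2, with 0 in UNC6852, 0 in UNC1999 and 8.65 in DMSO. Its other pair joined the captured fragment chr1:75131176-75131404 to the far end of the same gene over 67.5 kb, with 5.06, 2.68 and 2.42. LHX6, on chromosome 9 (122202582-122228957, minus strand), was the other end of 1 captured fragment 145 kb away, nearest to MRRF, with 5.84 in UNC6852, 2.13 in UNC1999 and 1.52 in DMSO. None of these 9 pairs was called more than once, as was the case for 118395 of all 152688 cis pairs.

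LHX1 and LHX3 had 0 pairs within 1000 bp because the nearest fragment with a cis pair lay 1096 bp from the LHX1 end and 1712 bp from the LHX3 end. The farthest pairs inside the limit lay at 929 bp, 4 pairs of ISL1, and the nearest outside it at 1023 bp, 6 pairs of LHX9. With 5000 bp, LHX1 on chromosome 17 (36936785-36944612) had 50 pairs with 19 calls in UNC6852, 26 in UNC1999 and 20 in DMSO. Of these, 29 lay in chr17:36603637-36700175 around MRM1, with 9 calls in UNC6852, 17 in UNC1999 and 9 in DMSO. LHX3 then had 2 pairs, with 0, 1 and 1 calls. LHX8 had 55 pairs with 30, 19 and 27 calls, of which 31 lay in a block that overlaps TYW3.

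Mean differences of asinh scores to DMSO are given for the 6 genes with at least 6 pairs, and among these the largest in UNC6852 were those of LHX5 and ISL2. LHX5 was lower by 1.02 in UNC6852 (-1.02) and higher by 0.32 in UNC1999 over 9 pairs, and ISL2 was higher by 0.76 in UNC6852 and had -0.30 in UNC1999 over 16 pairs. LHX9 had -0.30 and -0.15 over 20 pairs, and LHX4 0.19 and 0.74 over 6. The well-covered genes stood near 0: LHX2 had 0.18 in UNC6852 and 0.0084 in UNC1999 and ISL1 0.056 and 0.042, and all 4 of these signs turn when the profiles are quantile-normalized. Among the 3266 genes with at least 5 cis pairs, whose medians were 0.07 in UNC6852 and -0.0029 in UNC1999, 94.1% had a lower UNC6852 difference than ISL2 and 2.0% a lower one than LHX5. In UNC1999 LHX4 stood above 95.4% of genes, and the other 5 genes lay between 21.8% and 78.7%. Every pair of ISL2, LHX5 and LHX4 was called in 1 profile only. Their differences thus largely follow from which profile brought each pair into the list, and these ranks are not evidence of a gene effect. With gene ends at 5000 bp LHX5 had 0.17 in UNC6852 over 113 pairs. Both differences use the same DMSO profile, so they are not independent of each other.

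Single pairs differed from DMSO by much more than gene means. A difference of at least 1 asinh unit upward was seen in 43 of the 195 pairs in UNC6852 (22.1%, beside 20.2% of all cis pairs) and in 40 in UNC1999 (20.5%, beside 18.6%). Downward it was seen in 29 pairs in UNC6852 (14.9%, beside 17.1%) and in 36 in UNC1999 (18.5%, beside 18.7%). The shares are thus near those of all cis pairs. Neighbouring captured fragments of a gene give a view of how far scores differ within 1 profile. Across 16 ISL1 partner regions listed from more than 1 fragment, the median absolute difference between fragments was 0.41 asinh units over the profiles, beside 0.59 between UNC6852 and DMSO and 0.40 between UNC1999 and DMSO for the same fragment. For 21 LHX2 regions it was 0.57 between fragments, beside 0.63 and 0.54. For 3 LHX9 regions it was 1.03 between fragments, beside 1.03 and 0.63, and for 1 ISL2 region 0.83, beside 0.95 and 1.28. Differences between fragments in 1 profile were thus near those between profiles at LHX2, and at ISL1 for UNC1999. At ISL1 the difference between UNC6852 and DMSO was larger than that between fragments. The fragments lie at different positions of a gene, so their differences do not stand in for a replicate spread.

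**Figure D5:**
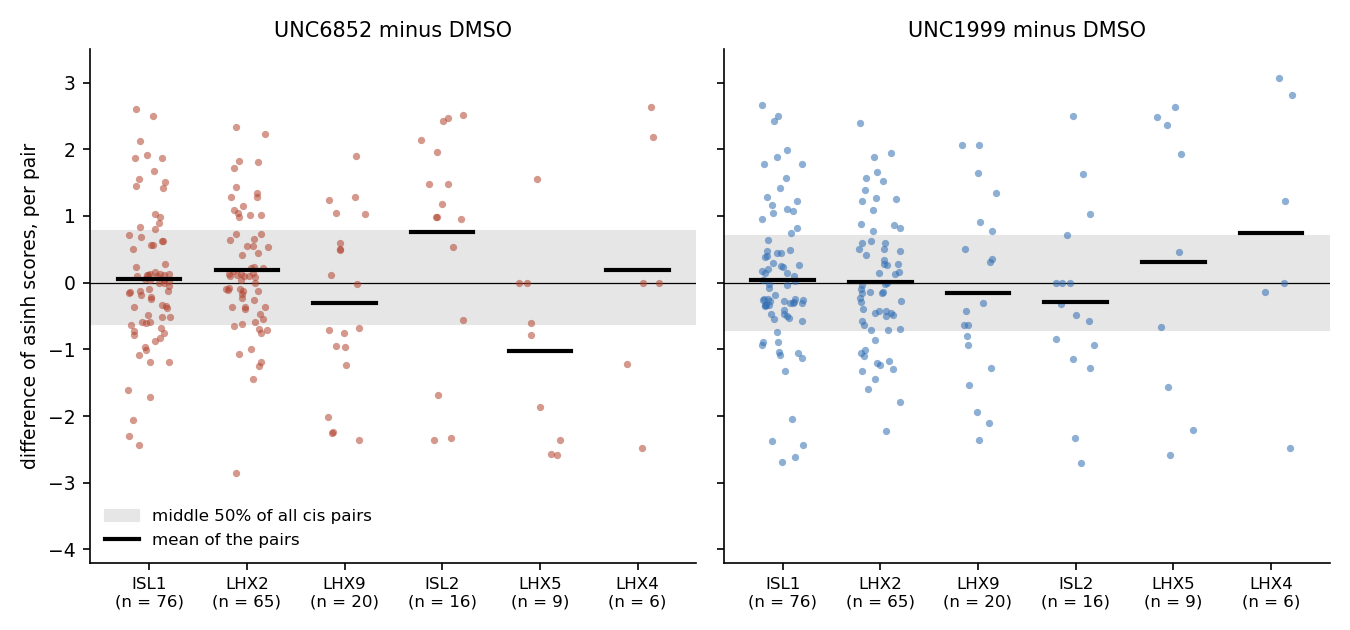
Difference of asinh scores for each pair of the 6 genes with at least 6 pairs, UNC6852 minus DMSO (left) and UNC1999 minus DMSO (right); black lines are means over pairs and the grey band holds the middle 50% of all cis pairs. Means of ISL1 and LHX2 lie near 0, ISL2 lies at 0.76 and LHX5 at -1.02 in UNC6852, and single pairs spread from about -3 to 3.

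Among 1565 genes with at least 10 pairs, those nearest to a member in the 3 mean asinh scores included OPCML and VWA3B for LHX2, L3MBTL3, LPIN3 and ECE2 for ISL1, BRINP2, USP2 and EHBP1 for LHX9, and TAC1, SLC1A2 and RIMBP2 for ISL2. The nearest of them were at a distance of 0.02 for LHX2, 0.06 for ISL1, 0.07 for LHX9 and 0.19 for ISL2, whose means rest on 16 pairs. TAC1, a neuropeptide gene with 29 pairs, had means of 1.84 in UNC6852, 1.02 in UNC1999 and 1.08 in DMSO.

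The other LIM genes and the cofactors of the family were taken as a list of 12: LMX1A, LMX1B, LDB1, LDB2, SSBP2, SSBP3, SSBP4, LMO1, LMO2, LMO3, LMO4 and RLIM. LMX1A and LMX1B are further LIM homeobox genes, LDB and SSBP proteins form the complex that LIM domains recruit, LMO proteins have LIM domains without a homeodomain, and RLIM is a ubiquitin ligase that acts on it. Of these, 8 had pairs, 102 in all, with 65 calls in UNC6852, 55 in UNC1999 and 36 in DMSO. These are 63.7%, 53.9% and 35.3% of the 102 pairs, beside 46.1%, 42.3% and 42.4% of all cis pairs. SSBP2 alone had 61 pairs with 42, 38 and 20 calls, of which 13 were called in every profile, and mean asinh scores of 2.45, 2.34 and 2.06. LMX1A had 12 pairs with 8, 3 and 4 calls, and LMO1 12 pairs with 6, 5 and 2. LDB1, LDB2, LMO4 and RLIM had 0 pairs. Over the list, pairs higher than DMSO by at least 1 asinh unit numbered 20 in UNC6852 (19.6%, beside 20.2% of all cis pairs) and 10 in UNC1999 (9.80%, beside 18.6%). Lower ones numbered 6 in UNC6852 (5.88%, beside 17.1%) and 5 in UNC1999 (4.90%, beside 18.7%). In the list as a whole, pairs above DMSO by that step were thus no more frequent than among all cis pairs and pairs below it were fewer. SSBP2 held 61 of the 102 pairs, read from 2 captured fragments, so calls and shares of the list are mainly a statement about this gene. By that step, 11 SSBP2 pairs were higher in UNC6852 and 2 in UNC1999, while 1 and 0 were lower.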

How the data were processed

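Poised-enhancer capture Hi-C was measured in HNES1 cells under UNC6852, UNC1999 and DMSO. The deposited table gives 1 CHiCAGO score per fragment pair and condition, pooled by the authors over all libraries of the condition, per the file headers and the labels. Per the submitters' processing notes the build is GRCh38; aligner, caller versions and settings are not given in the sources used here. Every listed pair reached 5 in at least 1 profile, so pairs low in all profiles are not seen. Gene ends came from RefSeq (GRCh38.p14), sequences from its promoter table, which matched 8 of the 10 members. Python 3.11.15 was used, with scipy 1.17.1, pandas 2.3.3, matplotlib 3.10.9 and numpy 2.4.6. Differences are of asinh scores. Partner blocks are runs of regions at most 60 kb apart. All 10 members are named; pairs were named if among a gene's 3 highest, its largest changes, called in 3 profiles or at another gene end, and other pairs were chosen after their values were seen. The members and lists were chosen with earlier results of these data known. The calculation was tested on simulated data. Alternatives are given in the closing section. Single libraries were not analysed here. Some items that the naming rule covers are not reported here.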

Additional observations from a re-analysis of the deposited data

How the results depend on the processing

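No paired analysis was possible because each condition has 1 pooled score per pair, so the shared replicate numbers of the libraries cannot be used. At a threshold of 10 the calls were 7 in UNC6852, 8 in UNC1999 and 8 in DMSO, and 50% of the 8 DMSO calls were also UNC6852 calls and 0% UNC1999 calls, beside 44.3% and 41.9% of the 4813 cis calls of DMSO at that threshold. With gene ends at 0 bp they were 26, 26 and 25, with 28.0% of DMSO calls also in UNC6852, and at 5000 bp 272, 243 and 239. With neighbouring other ends merged they were 58, 49 and 55, with 52.7% of DMSO calls also in UNC6852. Gene means turned sign as follows, UNC6852 before UNC1999 where both did. With gene ends at 0 bp ISL1 had -0.29 and -0.11 and LHX2 -0.029 in UNC1999. At 5000 bp ISL1 had -0.027 and -0.062, LHX9 0.042 and 0.13, LHX5 0.17 in UNC6852 and LHX2 -0.051 in UNC1999. Quantile normalization moved the median over genes to -0.15 in UNC6852 and -0.23 in UNC1999, with ISL1 at -0.14 and -0.16 and LHX2 at -0.046 and -0.25. It kept the sign of the other genes but put LHX9 at -0.60 and -0.47, ISL2 at 0.50 and -0.58, LHX5 at -1.24 and 0.075, and LHX4 at 0.0038 and 0.56. Over pairs that held ISL1 at the other end alone its means were -0.10 and -0.52, and over its pairs averaging 5 or more -0.048 and -0.13. The cause of these sign changes was not tested. Limits of pairs of at most 2 Mb, log2(score + 1) and the bait side only turned no sign. Read depth is unknown, and leaving out a replicate was not possible with pooled scores.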

Other observations

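The LIM homeobox genes also had 191 listed pairs with other chromosomes, 81 of them at ISL1, 43 at ISL2, 24 at LHX2 and 19 at LHX9. Of these, 56 were called in UNC6852, 72 in UNC1999 and 64 in DMSO, which is 29.3%, 37.7% and 33.5%, beside 34.3%, 36.1% and 30.0% of all trans pairs. Only 1 of the 191, a pair of LHX9, was called in more than 1 profile, which is 0.52%, beside 0.33% of the 281836 trans pairs. The highest trans score of a member was 20.0 at ISL1 in UNC6852. No trans pair joined 2 member genes.

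LHX2 and LHX9, which encode closely related factors, both had most of their partners inside a DENND1 gene: 59 of 65 LHX2 pairs in DENND1A and 18 of 20 LHX9 pairs in DENND1B. In each locus the DENND1 gene lies on the lower-coordinate side of the LHX gene. The partner block reaches beyond the DENND1 gene by 1 pair in each locus, called in UNC1999 only. At LHX2 this pair scored 0.52 in UNC6852, 6.27 in UNC1999 and 0.63 in DMSO, and at LHX9 0.38, 5.79 and 0.41.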
